A study of Mus musculus with 13 samples.

Results

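Transcription factors of the mouse oocyte were followed through 7 genes: Figla, Nobox, Lhx8, Sohlh1, Sohlh2, Taf4b and Tbpl2. They were chosen by symbol, and all 7 were found among the 23235 genes of the deposited table. The study separated oocytes by micromanipulation and made low-input poly(A) RNA libraries, with Smart-seq2, from pools of 10 nuclei or 10 cytoplasms. The MTR4-null oocytes were of day 21, with 2 libraries from nuclei and 2 from cytoplasms. WT nuclei have 3 libraries at day 21 and 2 at day 14, and WT cytoplasms have 2 at each day. MTR4, an RNA helicase, delivers nuclear transcripts to the exosome for decay; how its gene was deleted and the strain are not given in the sources used here. The table holds 4 columns, 1 per genotype and compartment, named as FPKM, a unit scaled to transcript length and to sequencing depth. None is named for a single library. In the null cytoplasm 100% of the values checked read as 1 value of 6 digits times 0.5. Either 1 library or a mean rounded to 6 digits reads so, and which it holds is open. So no spread between replicates, standard error or test can be given, and the depth in reads is unknown. The WT columns name no day, so genotype and age cannot be told apart in any comparison of null with WT.

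These factors work at successive levels. FIGLA, SOHLH1 and SOHLH2 are basic helix-loop-helix proteins, which bind DNA as dimers at E-boxes, and NOBOX and LHX8 are homeodomain proteins. All 5 are needed in mice for the formation or early growth of follicles, and SOHLH1 and SOHLH2 are known from the oocytes of the earliest follicles. TBPL2 and TAF4B are germ cell forms of general transcription proteins: TBPL2 takes the place of the TATA-binding protein TBP in growing oocytes, and TAF4B is a relative of the TFIID subunit TAF4.

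Column totals were 1396110 in the null nucleus, 594034 in the WT nucleus, 3007240 in the null cytoplasm and 6637350 in the WT cytoplasm, so values as deposited cannot be compared between columns at face value. Differences are therefore given relative to the median gene: a median-ratio size factor was divided out of each column, 1 was added and the log2 difference was taken. The other scales tried were the values as deposited, quantile normalization, and division by column factors read from the digits of the values. A difference of at least 2-fold is called higher or lower. Skiv2l2, the gene of MTR4, had deposited values of 3.54 in the null nucleus and 13.3 in the WT nucleus. The cytoplasms had 4.36 in null and 187 in WT. Relative to the median gene Skiv2l2 was 7.04-fold lower in the null nucleus and 16.6-fold lower in the null cytoplasm. The 7 oocyte markers (Zp1, Zp2, Zp3, Gdf9, Bmp15, Ddx4 and Dppa3) summed to 1.36% of the total in the null nucleus, 1.48% in the WT nucleus, 1.999% in the null cytoplasm and 2.48% in the WT cytoplasm. Fewer cells with a transcript and less of it per cell cannot be told apart in pools. The 12 granulosa cell markers summed to 0.00143%, 0.00308%, 0.00786% and 0.00661% in the same order; Foxl2 and Inha were listed at 0 in the null nucleus, and Amh and Amhr2 in the WT nucleus. Inha, at 86.8 in the null cytoplasm and 252.9 in the WT cytoplasm, made up much of the cytoplasmic sums. Of the 11 granulosa markers kept, 1 (Amh) was higher and 2 (Inha and Cyp19a1) lower in the null nucleus, and 4 (Wt1, Hsd3b1, Kitl and Amh) were higher and 1 (Cyp19a1) lower in the null cytoplasm. Of all kept genes, 25.6% were higher and 16.4% lower in the null nucleus, and 23.9% higher and 19.0% lower in the null cytoplasm. Wt1 had 16.4 in the null cytoplasm and 1.41 in the WT cytoplasm, and Hsd3b1 had 42.0 in null and 15.3 in WT. Foxl2, which was not among the kept markers, had 7.10 in the null cytoplasm and 0.117 in the WT cytoplasm. The part of the granulosa markers in the differences below was not tested.

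Among the helix-loop-helix genes, Sohlh1 and Sohlh2 stood on opposite sides in null and WT oocytes, and Figla was higher in the null nucleus. Figla, whose protein activates zona pellucida genes, had a deposited value of 202 in the null nucleus and 35.9 in the WT nucleus. In the cytoplasm it had 756 in null and 877 in WT. Relative to the median gene it was 2.60-fold higher in the null nucleus (log2 difference 1.38). The cytoplasmic log2 difference of 0.67 was short of 2-fold. The nuclear difference was positive on every scale tried (0.49 to 2.46), whereas the cytoplasmic one ran from -0.21 as deposited to 1.03 under quantile normalization.

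Sohlh1 was low in WT, with a deposited value of 12.9 in the null nucleus and 0.406 in the WT nucleus. In the cytoplasm it had 39.3 in null and 8.56 in WT. It was thus higher in null in both compartments, 9.12-fold in the nucleus (log2 3.19) and 6.37-fold in the cytoplasm (log2 2.67), and stayed above 2-fold on every scale tried. Its deposited WT nucleus value lies under 1. On the relative scale its WT values were 1.45 in the nucleus and 2.51 in the cytoplasm, so the added 1 shrinks both differences. With 0.1 added instead, the log2 differences were 3.79 in the nucleus and 3.04 in the cytoplasm.

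Sohlh2, the partner of SOHLH1 in dimers, had 0.790 in the null nucleus and 1.97 in the WT nucleus. In the cytoplasm it had 10.8 in null and 62.6 in WT. It was 3.47-fold lower in the null nucleus (log2 -1.79) and 2.81-fold lower in the null cytoplasm (log2 -1.49). The direction held on every scale tried, though as deposited the nuclear difference was only -0.73. Both nuclear values are near the level at which genes were kept.

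The homeodomain genes Nobox and Lhx8 were lower in the null cytoplasm, and Nobox by the larger amount. Nobox, an activator of Gdf9 and other oocyte genes, had 646 in the null cytoplasm and 6401 in the WT cytoplasm, the highest value among the 7 genes. In the nucleus it had 254 in null and 216 in WT. Relative to the median gene it was 5.34-fold lower in the null cytoplasm (log2 -2.42), with -3.31 to -2.10 over the scales tried. In the nucleus the relative difference was -0.87, within 2-fold, and its sign turned with the scale, from -1.77 after division by the digit factors to 0.23 as deposited.

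Lhx8, a LIM homeobox gene, had 357 in the null cytoplasm and 1512 in the WT cytoplasm, while the nuclei had 124 in null and 101 in WT. It was 2.28-fold lower in the null cytoplasm (log2 -1.19), but -0.84, within 2-fold, under quantile normalization. The nuclear difference of -0.80 turned to 0.30 as deposited. Nobox and Lhx8 therefore resembled each other in direction on each scale, and the size differed in the cytoplasm.

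Of the 2 germ cell forms of general transcription genes, Tbpl2 was higher in the null nucleus and Taf4b was within 2-fold in both compartments. Tbpl2 had 42.8 in the null nucleus and 8.67 in the WT nucleus, and was 2.26-fold higher there (log2 1.17; 0.30 with the digit factors divided out). In the cytoplasm it had 168 in null and 216 in WT, a relative difference of 0.52 that turned to -0.36 as deposited. Taf4b had 10.5 in the null nucleus and 3.83 in the WT nucleus, while the cytoplasms had 59.1 in null and 60.8 in WT. Its relative differences of 0.33 and 0.81 were both within 2-fold, and both changed sign over the scales tried.

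**Figure D1:**
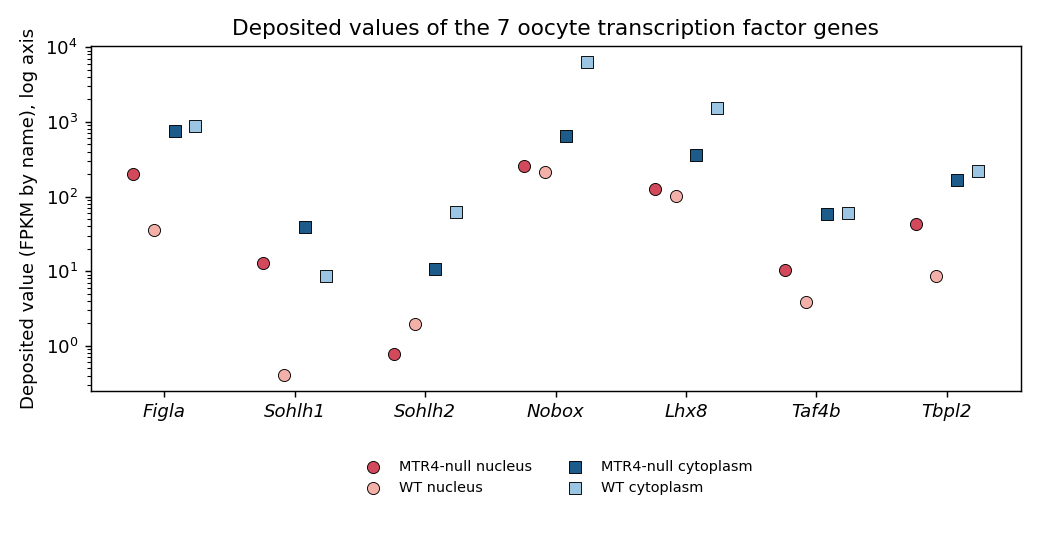
Deposited values (log axis) of the 7 genes in the null nucleus, WT nucleus, null cytoplasm and WT cytoplasm; each point is 1 column, without replicates. Nobox lies at 646 in the null cytoplasm and 6401 in the WT cytoplasm, and Sohlh1 and Sohlh2 change places between null and WT.

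By count, 3 of the 7 genes (Figla, Sohlh1 and Tbpl2) were higher by 2-fold or more in the null nucleus, where 25.6% of the 14240 kept genes were, and 1 was lower (Sohlh2), where 16.4% were. In the cytoplasm 1 was higher (Sohlh1; 23.9% of kept genes) and 3 were lower (Nobox, Lhx8 and Sohlh2; 19.0% of kept genes). Kept genes reached 1 in 2 or more of the columns, and all 7 passed, Sohlh1 with the WT nucleus and Sohlh2 with the null nucleus under 1. As deposited, 4 were higher (Figla, Sohlh1, Taf4b and Tbpl2; 46.3% of kept genes) and 0 lower (3.69%) in the null nucleus, and the cytoplasmic calls were the same 1 higher (14.9%) and 3 lower (43.7%). With so few genes these counts stand for the 7 genes alone. No gene was called in opposite directions in the nucleus and the cytoplasm. The median kept gene had, as deposited, a nuclear log2 difference of 0.91 and a cytoplasmic one of -0.79, which is the shift that the relative scale takes out.

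**Figure D2:**
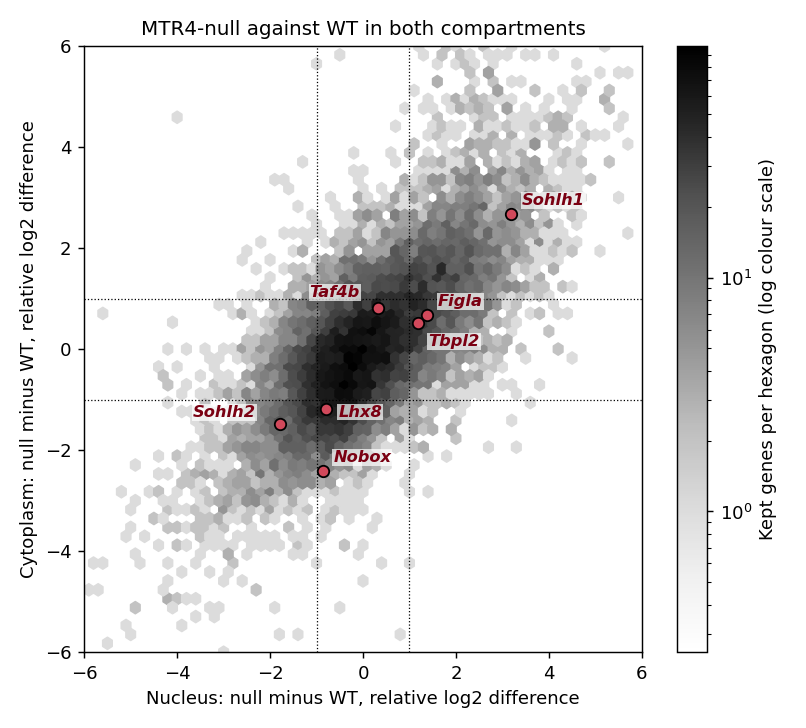
Relative log2 differences, null minus WT, in the nucleus (x axis) and the cytoplasm (y axis); red points are the 7 genes, grey hexagons the kept genes, of which 129 lie beyond the axis limits, and dotted lines mark 2-fold. Sohlh1 lies at 3.19 and 2.67, and Sohlh2 at -1.79 and -1.49.

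**Figure D3:**
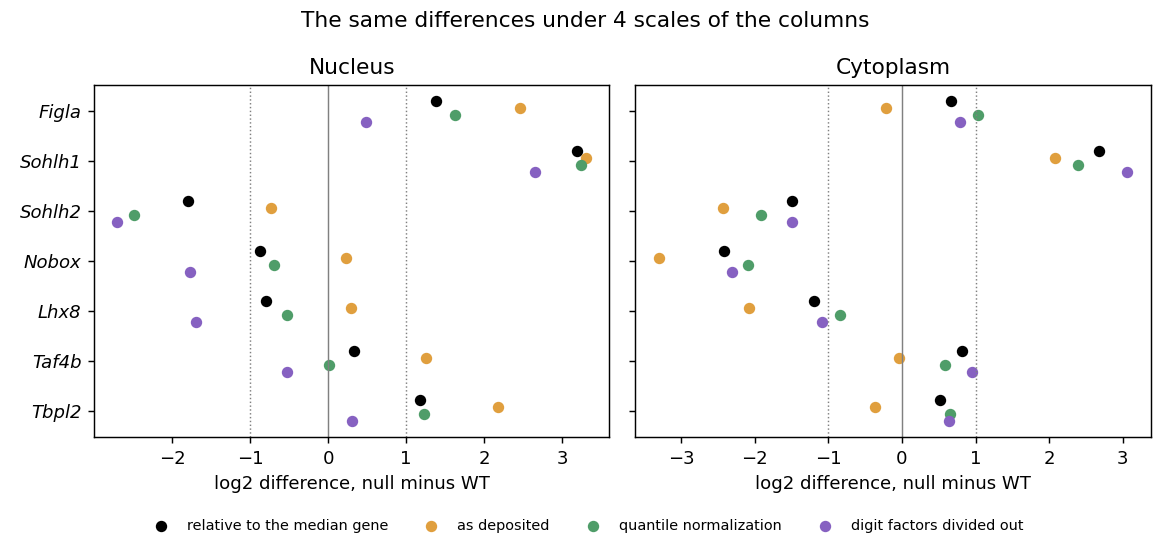
The log2 difference, null minus WT, of each gene on 4 scales of the columns, in the nucleus (left) and the cytoplasm (right); each point is 1 scale and dotted lines mark 2-fold. Sohlh1 stays to the right of 0 and Sohlh2 to the left in both compartments, and Nobox stays left of -2 in the cytoplasm only.

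The differences were also read against genes of similar WT cytoplasm value, because genes with high values there tended to be lower in null. In the cytoplasm this tendency may be partly built in, since the column that picks the genes is also subtracted. Among the 316 kept genes whose WT cytoplasm value lay within 2-fold of that of Nobox, the median cytoplasmic difference was -0.79, and 8 genes were lower still than Nobox. For Lhx8 there were 1256 such genes with a median of -0.79, and 396 of them were lower than Lhx8. For Figla there were 1754 such genes with a median nuclear difference of -0.51, and 1721 of them lay below Figla. Sohlh1 lay above 2145 of 2267 such genes in the nucleus, whose median was 0.73. Sohlh2 lay above 227 of 3331 in the nucleus, whose median was 0.088. For their WT cytoplasm level, Nobox was therefore low in the cytoplasm and Figla high in the nucleus. Lhx8 was closer to the middle of genes like it. In the nucleus 106 of the 316 genes were lower than Nobox, and 432 of the 1256 were lower than Lhx8. Nobox was thus placed like Lhx8 in the nucleus. Figla lay above 1667 of its 1754 genes in the cytoplasm, and Tbpl2 above 2844 of 3076 in the nucleus. These ranks are a description: the WT cytoplasm column that picks the genes also enters the cytoplasmic difference.

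Ratios between genes within a column do not depend on how that column was scaled, and they showed how the make-up of the group differed. Figla relative to Nobox was 0.796 in the null nucleus and 0.167 in the WT nucleus, while the cytoplasms had 1.17 in null and 0.137 in WT. The ratio was thus 4.78-fold higher in null in the nucleus and 8.53-fold higher in the cytoplasm. Figla exceeded Nobox in 1 of the 4 columns, the null cytoplasm. Lhx8 relative to Nobox was 0.490 in the null nucleus and 0.468 in the WT nucleus, while the cytoplasms had 0.552 in null and 0.236 in WT. Nobox and Lhx8 thus kept nearly the same proportion in both nuclei and not in the cytoplasms.

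Sohlh1 relative to Sohlh2 was 16.3 in the null nucleus and 0.207 in the WT nucleus, while the cytoplasms had 3.63 in null and 0.137 in WT. The pair was therefore reversed between genotypes in both compartments: Sohlh1 was the more abundant in null and Sohlh2 in WT. The nuclear ratios rest on values of 0.790 and 0.406, so their size is uncertain.

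The germ cell forms were also set against their general relatives. Tbpl2 relative to Tbp was 0.616 in the null nucleus and 0.148 in the WT nucleus, while the cytoplasms had 0.467 in null and 0.276 in WT, so Tbp RNA was the more abundant in every column. Taf4b relative to Taf4a was 0.374 in the null nucleus and 0.177 in the WT nucleus, while the cytoplasms had 0.419 in null and 0.495 in WT. Gtf2a1l, the germ cell form of the large TFIIA subunit, relative to Gtf2a1 was 8.36 in the null nucleus and 2.50 in the WT nucleus, while the cytoplasms had 3.76 in null and 5.13 in WT. All 3 of these germ cell forms held a larger share against their relatives in the null nucleus than in the WT nucleus, whereas in the cytoplasm this was so of Tbpl2 alone. Tbpl1 relative to Tbp went the other way, with 0.0229 in the null nucleus and 0.0418 in the WT nucleus. The cytoplasms had 0.0366 in null and 0.0600 in WT.

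**Figure D4:**
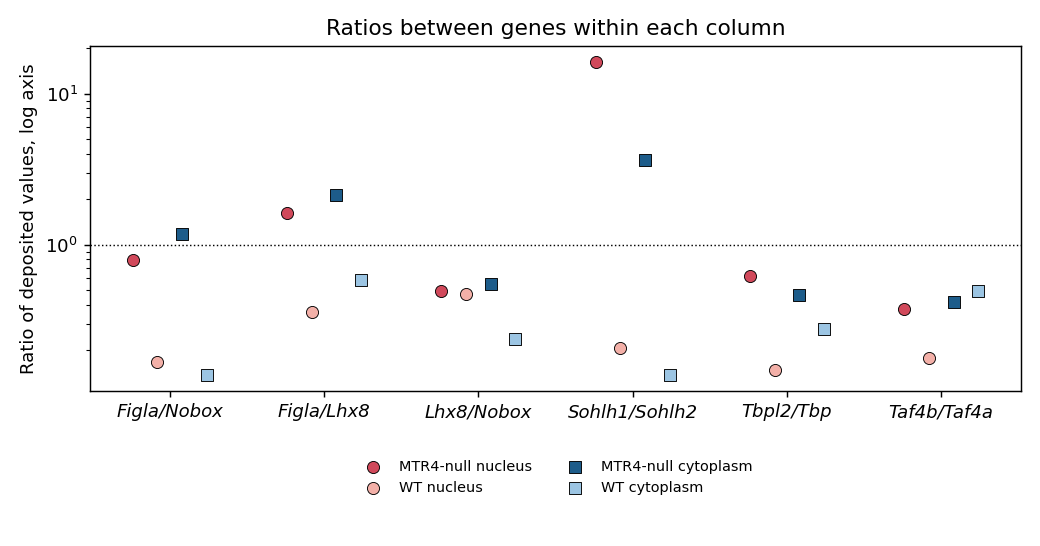
Ratios of deposited values (log axis) between 2 genes of the same column, for the null nucleus, WT nucleus, null cytoplasm and WT cytoplasm; each point is 1 column and the dotted line marks equal values. Sohlh1 over Sohlh2 lies above 1 in both null columns and below 1 in both WT columns.

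In rank, Nobox stood at 743 of 14240 kept genes in the null nucleus and 444 in the WT nucleus, while in the cytoplasms it stood at 845 in null and 167 in WT. Figla stood at 900 in the null nucleus and 2424 in the WT nucleus, while in the cytoplasms it stood at 725 in null and 1462 in WT. Lhx8 ranked 1407 and 977 in the null and WT nucleus, and 1516 and 867 in the null and WT cytoplasm. Figla was thus ranked higher in null, and Nobox and Lhx8 lower, in both compartments. Taf4b differed little in rank in the nucleus, at 7823 in null and 7837 in WT. In the cytoplasm Taf4b stood at 5908 in null and 7027 in WT. The highest of the 7 genes exceeded the lowest by 321-fold in the null nucleus, 531-fold in the WT nucleus, 69.8-fold in the null cytoplasm and 748-fold in the WT cytoplasm. The sum of the 7 was 0.0463% of the total in the null nucleus and 0.0619% in the WT nucleus, while the cytoplasms had 0.0677% in null and 0.138% in WT. Nobox alone made up 39.2% of that sum in the null nucleus and 58.7% in the WT nucleus. In the cytoplasms it made up 31.7% in null and 70.0% in WT. The sums thus largely follow Nobox and do not describe the 7 genes as a group.

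Between compartments, relative to the median gene, only Sohlh2 of the 7 was lower by 2-fold or more in the nucleus of null oocytes (log2 -1.58; 9.30% of kept genes), none was higher (12.1%), and Nobox had 0.26. In WT oocytes 4 of the 7 were lower in the nucleus, where 8.05% of kept genes were, and none was higher (9.36% of kept genes). These were Nobox (log2 -1.29), Sohlh2 (-1.28), Tbpl2 (-1.02) and Figla (-1.004), of which Tbpl2 and Figla lie at the 2-fold line. The nucleus minus cytoplasm difference was at least 2-fold higher in null than in WT for Nobox (1.55; 17.1% of kept genes) and lower for none (15.1%). With the digit factors divided out that of Nobox was 0.54, and none was higher. As deposited, each of the 7 had a lower value in the nucleus in both genotypes, as 71.9% of kept genes did by at least 2-fold in null and 91.2% in WT.

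Genes that act with or after the factors were taken from 4 lists. Levels below are deposited values, and counts, medians and numbers in parentheses are log2 differences on the relative scale, except where called as deposited. All kept genes had a nuclear median of 0.045 and a cytoplasmic one of 0.041. Of all kept genes, 25.6% were higher and 16.4% lower in the null nucleus, and 23.9% higher and 19.0% lower in the null cytoplasm. As deposited, 46.3% were higher and 3.69% lower in the nucleus, and 14.9% higher and 43.7% lower in the cytoplasm. The counts of each list are to be read beside these shares. Of 11 dimer and cofactor partners, 1 was higher and 1 lower in the null nucleus, and 3 were higher and 3 lower in the null cytoplasm (medians 0.094 and 0.79). As deposited, 5 were higher and 1 lower in the nucleus, and 1 was higher and 3 were lower in the cytoplasm. Tcf3, whose E12 product dimerises with FIGLA, had 26.7 in the null nucleus and 7.73 in the WT nucleus (0.67). The cytoplasms had 89.1 in null and 100.3 in WT (0.70), so neither difference of Tcf3 reached 2-fold. Id3, one of the Id genes whose products block helix-loop-helix dimers, had 108 in the null nucleus and 2.35 in the WT nucleus (4.27), while the cytoplasms had 300.3 in null and 237 in WT (1.22). Id2 was lower in the null nucleus (-2.37) and in the null cytoplasm (-1.59). Id4 was valued at 10.96 in the null cytoplasm and listed at 0 in WT. Tcf4 was higher (1.62) and Ssbp2 lower (-1.43) in the null cytoplasm. The Id genes therefore did not share a direction.

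Of 19 genes of TFIID, TFIIA and TFIIB, none was higher and 5 were lower in the null nucleus, and 4 were higher and 4 lower in the null cytoplasm (medians -0.72 and 0.15). The lower ones in the nucleus included Gtf2b (-2.22), Taf9 (-1.48), Tbpl1 (-1.42) and Taf13 (-1.39). Taf5 and Taf1 were higher (1.17 and 1.14) and Taf12 and Taf13 lower (-1.28 and -1.12) in the cytoplasm. Tbpl2 was higher in the null nucleus, unlike any of the 19 at 2-fold. As deposited, 6 of the 19 were higher and 1 lower in the null nucleus, and 0 higher and 9 lower in the null cytoplasm, so the lean in either compartment rests on the scale.

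Of 18 oocyte genes reported downstream of the factors, 3 were higher and 4 lower in the null nucleus, and 1 was higher and 4 lower in the null cytoplasm (medians -0.18 and -0.50). As deposited, 8 were higher and 1 lower in the nucleus, and none was higher and 11 were lower in the cytoplasm. Oas1d was lower in both (-1.37 in the nucleus and -2.15 in the cytoplasm), as was Rfpl4 (-2.24 and -1.32). Oosp1 was lower (-1.38) and Nlrp5 higher (1.23) in the null nucleus, and H1foo (-1.57) and Zp1 (-1.44) were lower in the null cytoplasm. Zp2, a zona gene that FIGLA activates, was higher in the null nucleus (1.07), as Figla was, and had a cytoplasmic difference of 0.092, or -0.80 as deposited. Zp3, another zona gene activated by FIGLA, had a nuclear difference of -0.026 and a cytoplasmic one of -0.51. The NOBOX target Gdf9 differed by -0.23 in nuclei and by -0.71 in cytoplasms. Of these 3 genes, then, only Zp2 was called, and only in the nucleus. The 3 were picked after their values were seen, and others of the list were placed otherwise. The zona gene Zp1, lower in the null cytoplasm, had a nuclear difference of -0.41. Bmp15 was lower in the null nucleus (-1.13) and had -0.48 in the cytoplasm. The 1 gene higher in the null cytoplasm was Pou5f1 (1.15), with -0.88 in the nucleus.

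Of 16 other transcription regulators 13 were kept. In the null nucleus 2 were higher and none lower, and in the null cytoplasm 3 were higher and none lower (medians 0.12 and 0.38). As deposited, 8 were higher and none lower in the nucleus, but 2 were higher and 4 lower in the cytoplasm. Yy1 had 18.5 in the null nucleus and 2.61 in the WT nucleus (1.62), while the cytoplasms had 173 in null and 28.7 in WT (3.33). Tcfl5, a helix-loop-helix gene of germ cells, had 11.5 in the null nucleus and 0.907 in the WT nucleus (2.25), while the cytoplasms had 50.2 in null and 8.20 in WT (3.05). Tcfl5 was thus placed like Sohlh1: higher in null in both compartments and low in WT. Sp1 was higher in the null cytoplasm (1.55).

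**Figure D5:**
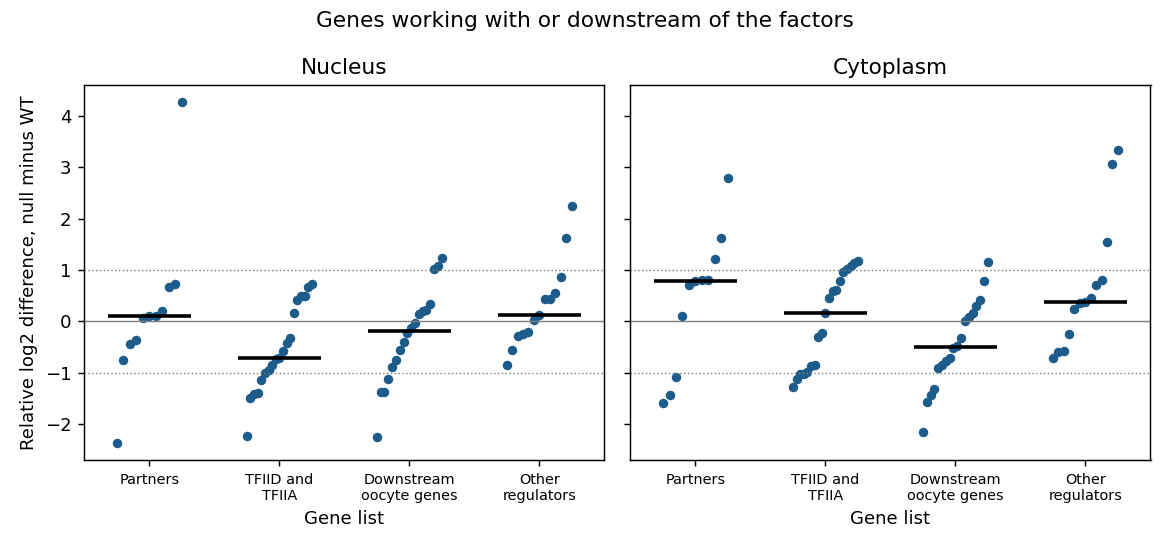
Relative log2 difference, null minus WT, of each kept gene of the 4 lists in the nucleus (left) and the cytoplasm (right), sorted by value; black bars are list medians and dotted lines mark 2-fold. The TFIID and TFIIA median lies at -0.72 on the left and 0.15 on the right.

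The kept genes nearest to each member over the 4 relative log2 values, by Euclidean distance, were Nubp2 and 2410022L05Rik for Figla (0.40 and 0.45) and Mapk3 and Oog4 for Nobox (0.53 for both). For Lhx8 they were Mrps16 and Stau1 (0.13 for both), and for Sohlh1 they were Zbtb5 and Slc27a4 (0.26 and 0.30). Sohlh2 was nearest to Dfna5 and Rgnef (0.49 and 0.50), Taf4b to Kif16b and Zfp597 (0.13 and 0.16), and Tbpl2 to Rab3ip and Papss1 (0.13 and 0.32). A likeness over 4 columns is weak, and no member was among the 2 nearest genes of another.

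The sequence upstream of the start site is shown for 2 pairs whose ratio differed between null and WT in both compartments, Figla with Nobox and Sohlh1 with Sohlh2. The 250 bases before the start come from RefSeq on GRCm38.p6, a later build than the mm9 named for the data, and capitals mark E-boxes, the letters CANNTG, which read alike on both strands.
Figla, chr6:86016941-86017190, + strand: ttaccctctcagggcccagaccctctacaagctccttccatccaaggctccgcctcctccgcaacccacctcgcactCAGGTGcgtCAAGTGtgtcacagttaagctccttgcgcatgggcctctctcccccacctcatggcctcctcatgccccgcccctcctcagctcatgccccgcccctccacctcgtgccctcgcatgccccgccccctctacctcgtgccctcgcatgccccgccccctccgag
Nobox, chr6:43309555-43309804, - strand: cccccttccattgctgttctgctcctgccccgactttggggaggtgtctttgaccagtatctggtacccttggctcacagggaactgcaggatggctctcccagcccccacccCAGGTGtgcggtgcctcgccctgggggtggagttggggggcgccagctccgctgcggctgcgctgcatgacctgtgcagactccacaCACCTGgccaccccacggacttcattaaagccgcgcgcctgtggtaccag
Sohlh1, chr2:25847249-25847498, - strand: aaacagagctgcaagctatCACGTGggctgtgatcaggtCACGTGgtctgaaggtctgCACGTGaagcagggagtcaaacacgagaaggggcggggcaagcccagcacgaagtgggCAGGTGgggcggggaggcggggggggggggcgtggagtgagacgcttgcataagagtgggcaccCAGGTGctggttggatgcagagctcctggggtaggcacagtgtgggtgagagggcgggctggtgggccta
Sohlh2, chr3:55181794-55182043, + strand: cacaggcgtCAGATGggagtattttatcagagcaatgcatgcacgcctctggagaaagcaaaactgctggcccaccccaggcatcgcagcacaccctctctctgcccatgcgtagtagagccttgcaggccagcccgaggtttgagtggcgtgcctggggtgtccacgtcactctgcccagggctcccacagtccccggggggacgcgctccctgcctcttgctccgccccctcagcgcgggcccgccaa

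Sohlh1 held 5 E-boxes, 3 of them CACGTG at 231, 211 and 192 bases before the start, whereas Sohlh2 held 1, CAGATG at 241. Figla held 2, at 173 and 164, and Nobox held 2, at 137 and 50. Tbpl2 held 4 and Lhx8 none. Of the 6 members with a sequence, Taf4b having no entry, 5 thus held an E-box, against 66.2% of all 32851 promoters. The NOBOX letters TAATTG or TAATTA, the LHX8 letters TGATTG and the TATA box letters TATAAA, searched on both strands, were found in none of the 6 (11.3%, 12.7% and 12.4% of all promoters). Of the 18 downstream genes only 11 had an entry, with 16 promoters, so some genes count more than once. Of these promoters, 13 held an E-box, 2 the NOBOX letters (Nlrp5 and Bmp15), 4 the LHX8 letters and 3 the TATA box letters. Genes higher and genes lower in null both held E-boxes, and a match of letters is not a measured binding site. In the GENCODE annotation no exon of the 7 genes overlapped an exon of another gene on either strand.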

How the data were processed

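Poly(A) RNA libraries of oocyte nuclei and cytoplasms were sequenced. Per the submitters' processing notes, TopHat2 2.1.1, Cufflinks 2.2.1 and build mm9 were used, without roles or settings. The authors deposited 1 table with 4 columns, named FPKM, which is treated here as a score because the columns are not on 1 scale; the averaging and scaling of libraries are not given in the sources used. The digits of the values read as multiplication by 0.125 in the WT nucleus and by 0.5 in both null columns. In the WT cytoplasm they read as multiplication by 1. Such readings are not unique, and that of the WT nucleus is the least sure. There 87.6% of the values checked read as a mean of 2 at 0.125, the smallest factor tried, and 56.4% at 0.25. Whether a smaller factor reads better was not checked. Of the scales tried, 1 divides these factors out. The MTR4 columns were taken as the day 21 null groups.

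With no column per library, nothing was tested. Each column was divided by a size factor, the median over genes above 0 in all 4 columns of its ratio to their geometric mean (size factors 0.604 for the null nucleus, 0.281 for the WT nucleus, 1.84 for the null cytoplasm and 3.41 for the WT cytoplasm). Genes with at least 1 in 2 columns were kept (14240), 1 was added and log2 differences were called at 2-fold. Ratios used deposited values. Up to 4 called genes per list and compartment with the largest differences were named, and 2 nearest genes per member; Tcf3, Zp2, Zp3 and Gdf9, and the relatives in the ratios, were added for their roles, and single granulosa markers for their values, after those values were seen. Alternatives were other scales, a pseudocount of 0.1 and no filter. The members and lists were chosen with earlier results of these data known. The calculation was tested on simulated data in which few genes differed, all in the same direction. That test does not bear on which scale is right for these columns. Python 3.11.15, pandas 2.3.3 and numpy 2.4.6 were used.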

Additional observations from a re-analysis of the deposited data

How the results depend on the processing

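No paired analysis was possible because the table holds no column per library, and leaving out replicates could not be run for the same reason. With a pseudocount of 0.1, all 10 counts of called genes stayed within 1.5 times of those reported. Leaving out the filter on low values could not change them, because all 7 genes passed it and the size factors do not use it. It altered only the shares of all genes. The scale of the columns moved 12 counts. Shares in parentheses are those of all kept genes. As deposited, 0 genes were lower in the null nucleus against WT (3.69%), 7 were lower in the nucleus than in the cytoplasm in null (71.9%) and 7 in WT (91.2%), and the nuclear excess over the cytoplasm was higher in null than in WT for 7 (71.7%). Under quantile normalization 2 were higher in the null cytoplasm (Figla and Sohlh1; 20.7%), and 2 were lower in the nucleus than in the cytoplasm in null (Sohlh2 and Taf4b; 13.7%) and 2 in WT (Nobox and Sohlh2; 11.2%). After division by the digit factors, 1 was higher in the null nucleus (Sohlh1; 15.4%) and 3 lower (Nobox, Lhx8 and Sohlh2; 43.2%), 7 were lower in the nucleus than in the cytoplasm in null (74.2%), and the nuclear excess was higher in null than in WT for 0 (5.51%) and lower for 2 (Sohlh2 and Taf4b; 45.3%). These counts largely move with the shift of all genes. Each rescaling moves all genes of a column together, apart from quantile normalization, and which scale is right was not tested. No difference of the 7 genes called on the relative scale changed sign on another. Between the other scales signs did change: the difference in nuclear excess, null minus WT, was 1.29 as deposited and -1.47 with the digit factors divided out for Taf4b, and 1.70 and -1.21 for Sohlh2. The nuclear difference of Taf4b, null minus WT, was 1.25 as deposited and -0.52 with the digit factors divided out. Read depth is unknown, so the precision of the low Sohlh1 and Sohlh2 values cannot be given.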
